A study of Homo sapiens with 9 samples.

Results

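The comparison was of Hep3B cells transfected with an siRNA against YAP and Hep3B cells transfected with a nonsense siRNA, both harvested 24 h after transfection. Members were all probe sets of the array that name 1 gene, 19460 of the 33297 in the table, read on the 3 arrays of each siRNA group. They stood for 18417 genes, of which 769 had several probe sets. Hep3B is a human hepatocellular carcinoma line, and the siRNAs were introduced with the lipid reagent Oligofectamine after 24 h of growth in full medium. A further 3 arrays held untreated Hep3B cells, grown in the same medium and not transfected. They served here to place a difference on the side of 1 siRNA or the other. They also entered the limma estimate of the spread behind each adjusted p, and 1 permutation test of YAP1. The titles carry the prefix HUH, but Hep3B is the line named in the cell line field and is used here. Whether the 3 samples per group were separate cultures is not stated, so p-values measure the spread between these samples, which may be technical. The siRNA sequences, and how many were used, are not given in the labels. In bulk RNA, fewer cells of a type and less RNA per cell cannot be told apart.

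Values were log2 signals of total RNA, the array medians lay within 0.0486 of each other, and precision was limited by the number of arrays. Between arrays Pearson's r, taken across probe sets, which are not independent replicates, was 0.988 to 0.997. The arrays of YAP siRNA replicate 3, nonsense siRNA replicate 2 and untreated replicate 3 stood apart from the rest, with limma array weights of 0.464, 0.451 and 0.597. Many of the counts that rest on them are given with and without them. The 9 measured hepatocyte identity markers averaged 10.50 to 10.64 per array. The 11 leukocyte markers averaged at most 7.12 and the 14 stromal and endothelial markers 6.84 to 6.97, both under the median of 7.29 over all single-gene probe sets.

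YAP, the product of YAP1, is a transcriptional coactivator without a DNA-binding domain of its own. It enters the nucleus, binds TEAD factors and raises genes of growth, survival and cell shape. The kinases of the Hippo pathway, MST and LATS, with their scaffolds SAV1, MOB1 and WWC proteins, phosphorylate YAP and hold it in the cytoplasm. In liver this pathway limits organ size, and YAP is often abundant in hepatocellular carcinoma.

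The YAP1 transcript was lowered on every array of the group. It read 8.66, 8.75 and 8.68 after nonsense siRNA (replicates 1 to 3), 7.54, 7.52 and 7.48 after YAP siRNA, and 8.78, 8.62 and 8.69 in untreated cells. The 3 YAP siRNA arrays lay below the 6 others with no overlap. The difference of -1.18 on the log2 scale (SE 0.0549, limma adjusted p = 5.83e-09) left 44.0% of the nonsense siRNA level, and an exact two-sided permutation test against the 3 nonsense siRNA arrays gave p = 0.1, the smallest it allows. Against all 6 other arrays the exact two-sided p was 0.0238, also the smallest possible.

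Over all single-gene probe sets 867 passed at an adjusted p under 0.05 (4.46%), 500 lower (2.57%) and 367 higher (1.89%) after YAP siRNA. Counted once per gene, by the probe set with the highest mean, 819 of 18417 genes passed (4.45%), 470 lower (2.55%) and 349 higher (1.89%). A difference was placed on the YAP side when YAP siRNA also passed against untreated cells in the same direction and nonsense siRNA did not pass against them. It was placed on the nonsense side in the reverse case, on both when both siRNA groups passed against untreated cells in opposite directions, and was otherwise not placed. Not passing does not mean no difference. LIN7C, on the YAP side, had nonsense siRNA above untreated cells by 0.29 with no overlap (adjusted p = 0.0719). By this rule 334 of all probe sets lay on the YAP side (1.72%), 57 on the nonsense side (0.293%) and 4 on both (0.0206%), and 472 passed without being placed (2.43%). These 3 comparisons share arrays, so the placements are descriptions.

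Of the 12 measured genes of the YAP, TAZ and TEAD complex, 3 fell and 0 rose by limma (0 rose at an unadjusted p under 0.05). YAP1 was joined by TEAD1, a DNA-binding partner of YAP, and VGLL3, a cofactor that also binds TEAD factors. TEAD1 read 8.67, 8.68 and 8.54 after nonsense siRNA, 8.27, 8.24 and 8.12 after YAP siRNA, and 8.47, 8.49 and 8.38 in untreated cells. Its YAP siRNA arrays were the 3 lowest of the 9, the difference was -0.42 (SE 0.0599, adjusted p = 0.000612), and it lay on the YAP side. VGLL3 fell by 0.26, was not placed, and was lost in 6 of the 9 fits lacking 1 array (adjusted p up to 0.207, without YAP siRNA replicate 1). The paralogs TEAD2, at -0.18 (adjusted p = 0.134), TEAD3, at -0.14 (0.228), and TEAD4, at -0.16 (0.148), did not pass, although in each the 3 YAP siRNA arrays lay below the 6 others. WWTR1, which encodes the YAP paralog TAZ, read 7.96, 8.04 and 7.94 after nonsense siRNA and 7.97, 8.10 and 8.07 after YAP siRNA. These ranges overlapped and the difference of 0.07 did not pass (adjusted p = 0.638).

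Among 24 measured target genes of YAP and TEAD, 8 fell and 1 rose, and all 9 lay on the YAP side. The shares were 33.3% lower and 4.17% higher, against 2.55% and 1.89% over all genes, and the median difference was -0.10 against 0.01. The same 2.55% and 1.89% apply to each list below. Calls were more frequent at brighter signals, and the median signal of this list was 8.28 against 7.31 over all genes. Shares over all genes are thus a low comparison for this and other bright lists. The list was drawn up with earlier results of these data known. The count of falls was 5 without YAP siRNA replicate 1 and 5 with quantile normalization. In 13 of the 24 the YAP siRNA arrays lay below the 3 nonsense siRNA arrays with no overlap and in 3 above, where 20% of all probe sets did not overlap in either direction.

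TEAD factors bind the hexamer GGAATG, and the promoters of 3 lowered target genes that hold it are shown to place the match relative to the start. The sequences are the 250 bases before the transcription start in RefSeq (GRCh38.p14), written 5′ to 3′ on the gene's strand, with GGAATG or its reverse complement CATTCC in capitals. CCN2 lies on the minus strand (chr6:131951373-131951622) and ANKRD1 too (chr10:90921088-90921337), and TGFB2 lies on the plus strand (chr1:218345086-218345335).
CCN2: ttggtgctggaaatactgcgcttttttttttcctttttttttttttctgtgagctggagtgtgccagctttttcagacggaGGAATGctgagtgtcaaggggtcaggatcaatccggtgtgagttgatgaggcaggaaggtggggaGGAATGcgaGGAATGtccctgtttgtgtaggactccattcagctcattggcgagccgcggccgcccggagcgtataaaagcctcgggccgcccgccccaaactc
ANKRD1: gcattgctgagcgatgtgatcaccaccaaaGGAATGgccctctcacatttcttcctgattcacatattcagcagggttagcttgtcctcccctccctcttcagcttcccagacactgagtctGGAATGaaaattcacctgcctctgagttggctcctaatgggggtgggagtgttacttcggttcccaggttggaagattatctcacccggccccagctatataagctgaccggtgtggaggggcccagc
TGFB2: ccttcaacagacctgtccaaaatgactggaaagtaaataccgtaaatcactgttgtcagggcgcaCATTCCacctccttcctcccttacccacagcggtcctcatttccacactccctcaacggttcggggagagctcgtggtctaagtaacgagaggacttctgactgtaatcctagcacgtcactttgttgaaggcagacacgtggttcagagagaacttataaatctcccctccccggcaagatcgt
CCN2 held 3 matches, beginning 169, 104 and 95 bases before the start, ANKRD1 held 2, at 220 and 128 bases, and TGFB2 held 1, at 185 bases. A match is a description of letters and not a binding site.

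ANKRD1, an ankyrin repeat gene of muscle and stressed cells, read 10.64, 10.57 and 10.59 after nonsense siRNA and 10.16, 10.10 and 10.09 after YAP siRNA. Untreated cells read 10.44, 10.59 and 10.57, so the 3 YAP siRNA arrays lay below the 6 others. The difference was -0.48 (SE 0.0558, adjusted p = 0.000102). CCN2, which encodes a matricellular growth factor modulator, read 9.75, 9.83 and 9.86 after nonsense siRNA, 9.51, 9.52 and 9.60 after YAP siRNA and 9.80, 9.84 and 9.98 in untreated cells. Its YAP siRNA arrays again lay below the 6 others, with a smaller difference of -0.27 (SE 0.0592, adjusted p = 0.0145). CCN2 was lost without YAP siRNA replicate 1 (adjusted p = 0.0718) or 2 (0.0616) and in the fit lacking nonsense siRNA replicate 3 (0.0704). With quantile normalization CCN2 did not pass either (adjusted p = 0.0547). CCN1, its close relative, read 9.03, 8.91 and 9.33 after nonsense siRNA, 8.75, 8.71 and 8.65 after YAP siRNA and 9.21, 9.46 and 9.37 in untreated cells. The nonsense siRNA arrays were spread widely, and untreated cells were farther from YAP siRNA (-0.64, adjusted p = 0.000835) than nonsense siRNA was (-0.39, adjusted p = 0.0188). CCN1 was lost without YAP siRNA replicate 2 (adjusted p = 0.0612) or 3 (0.0757) and in the fit lacking nonsense siRNA replicate 3 (0.0759). With the mean small RNA level as a covariate CCN1 did not pass either (adjusted p = 0.109).

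AMOTL2, an angiomotin relative that binds YAP at junctions, read 8.48, 8.61 and 8.59 after nonsense siRNA and 8.14, 8.12 and 8.12 after YAP siRNA, with untreated cells at 8.64, 8.70 and 8.57. Its difference was -0.43 (SE 0.0552, adjusted p = 0.000259). CRIM1, a membrane protein that binds BMPs, fell by 0.35, and AJUBA, a LIM protein that restrains LATS and was named after its values were seen, fell by 0.33. ANKRD1, AMOTL2, CRIM1 and AJUBA were called in each of the 9 fits with 1 array left out, and AJUBA was lost once the mean small RNA level was a covariate (adjusted p = 0.0574). GADD45B and TGFB2, also named after their values were seen, fell by 0.29 and 0.23. GADD45B was lost in 3 of the 9 fits (adjusted p up to 0.102, without YAP siRNA replicate 1) and TGFB2 in 5 (0.142, without YAP siRNA replicate 3). NT5E, the ecto-5′-nucleotidase gene named likewise, was the member that rose, by 0.24, and was lost in 7 of 9 (0.178, without YAP siRNA replicate 2). AXL, a receptor tyrosine kinase gene, differed by -0.05, which did not pass (adjusted p = 0.817), with overlapping siRNA groups.

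**Figure D1:**
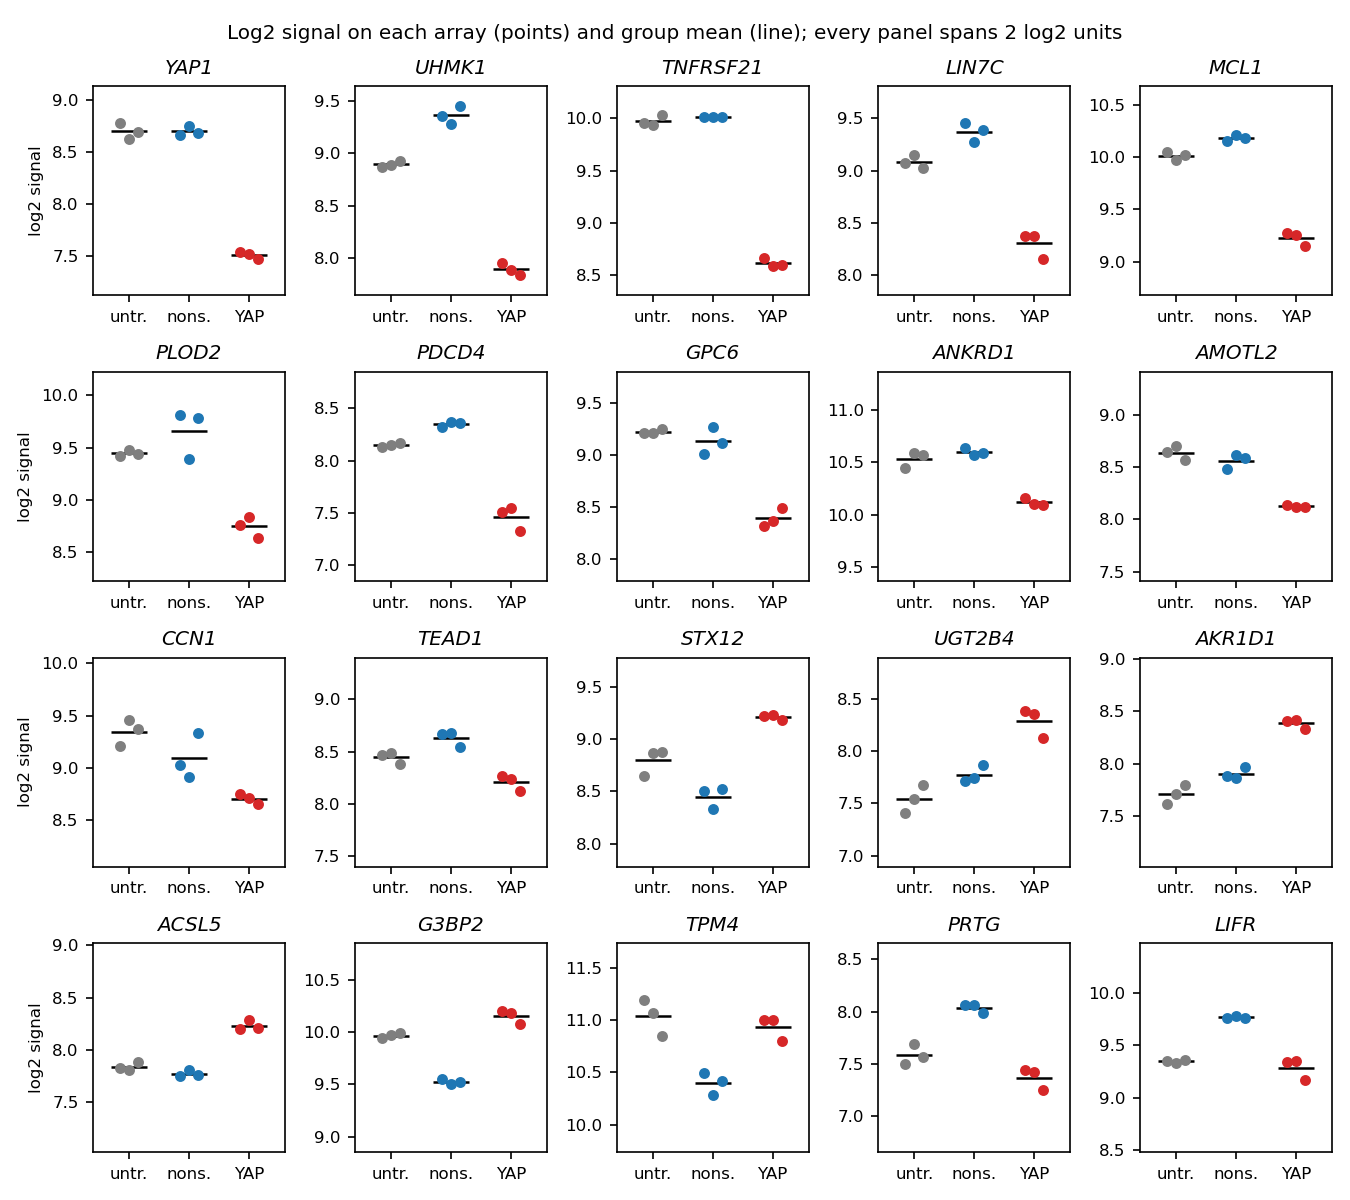
Log2 signal of 20 genes (y axis, each panel spanning 2 log2 units) on the 3 untreated, 3 nonsense siRNA and 3 YAP siRNA arrays (points), with group means as lines. YAP1, TNFRSF21 and ANKRD1 are low in the YAP siRNA arrays against both controls, whereas TPM4, G3BP2, PRTG and LIFR differ from untreated cells mainly in the nonsense siRNA arrays.

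Of 21 measured genes of the Hippo kinase cascade and its upstream regulators, 5 fell (23.8%) and 0 rose by limma, with 0 higher at an unadjusted p under 0.05. WWC2 and WWC1, scaffolds that activate LATS kinases, fell by 0.46 (SE 0.0673, adjusted p = 0.000761) and 0.36 (SE 0.0644, adjusted p = 0.00403), both on the YAP side. FAT4, an atypical cadherin upstream of the cascade, read 7.44, 7.44 and 7.41 after nonsense siRNA, 7.05, 7.01 and 6.96 after YAP siRNA and 7.16, 7.19 and 7.24 in untreated cells. The untreated arrays lay between the siRNA groups. Against untreated cells neither YAP siRNA (adjusted p = 0.0618) nor nonsense siRNA (0.0541) passed, so FAT4's difference of -0.42 (adjusted p = 0.000151) was not placed. MOB1B, a LATS cofactor gene, fell by 0.36 and was not placed. SAV1, the MST scaffold gene named after its values were seen, fell by 0.33 and was lost in 6 of 9 fits (adjusted p up to 0.181, without nonsense siRNA replicate 1). The other 4 were called in each of the 9 fits, and WWC1 was lost with the small RNA covariate (adjusted p = 0.0546).

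With 1 probe set counted per gene, the largest falls were those of UHMK1, TNFRSF21, YAP1 and LIN7C, which exceeded those of the target genes. UHMK1, a kinase of the cell cycle inhibitor p27 and of splicing factors, read 9.36, 9.28 and 9.45 after nonsense siRNA, 7.95, 7.89 and 7.84 after YAP siRNA, and 8.87, 8.89 and 8.93 in untreated cells. The 3 groups were separate, with untreated cells in the middle, so UHMK1 lay on both sides: it was lower than untreated cells after YAP siRNA (adjusted p = 1.2e-07) and higher after nonsense siRNA (0.46, adjusted p = 0.00264). Its difference of -1.47 (SE 0.0572, adjusted p = 6.79e-10) left 36.1% of the nonsense siRNA level. TNFRSF21, death receptor 6, read 10.01 on each nonsense siRNA array, 8.67, 8.59 and 8.60 after YAP siRNA, and 9.96, 9.94 and 10.03 in untreated cells. Both controls stood at one level and the difference of -1.39 left 38.1% of it. LIN7C, a scaffold of epithelial polarity, read 9.46, 9.27 and 9.39 after nonsense siRNA and 8.38, 8.38 and 8.16 after YAP siRNA, with untreated cells at 9.07, 9.15 and 9.03. All 3 untreated arrays lay between the siRNA groups, and the difference of -1.07 was on the YAP side, as was that against untreated cells alone (-0.78, adjusted p = 1.85e-05).

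MCL1, an anti-apoptotic BCL2 relative, read 10.15, 10.21 and 10.18 after nonsense siRNA, 9.27, 9.26 and 9.15 after YAP siRNA and 10.05, 9.97 and 10.02 in untreated cells. It fell to 51.6% on the YAP side and was the only one of 20 measured BCL2 family genes to pass. In the TNF receptor superfamily TNFRSF21 was the 1 of 27 that fell (3.7%), and 3 rose (11.1%), against 2.55% and 1.89% over all genes. TNFRSF9, a costimulatory receptor gene, read 7.84, 7.87 and 7.91 after nonsense siRNA and 8.31, 8.46 and 8.33 after YAP siRNA, a rise of 0.49 (SE 0.0545, adjusted p = 7.41e-05). Untreated cells read 7.88, 7.87 and 7.91, level with nonsense siRNA. TNFRSF10B, a death receptor for TRAIL, rose by 0.22 on the YAP side and TNFRSF1A by 0.19, not placed. With 1 array left out TNFRSF10B was lost in 4 of 9 fits (adjusted p up to 0.0883, without nonsense siRNA replicate 3) and TNFRSF1A in 7 (0.192, without nonsense siRNA replicate 1).

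CLDN12, a tight junction claudin, fell by 0.77 (SE 0.055, adjusted p = 9.36e-07) to 58.5% of the nonsense siRNA level. CXADR, the coxsackie and adenovirus receptor of tight junctions, named after its values were seen, fell by 0.73 (SE 0.0804, adjusted p = 7.35e-05). Both lay on the YAP side, and in both the YAP siRNA arrays were below all 6 others. Of 36 measured tight junction and polarity genes LIN7C and CLDN12 fell (5.56%, against 2.55% over all genes). CLDN4 rose by 0.28, not placed (2.78%, against 1.89%). CLDN4 did not pass (adjusted p = 0.0538) without nonsense siRNA replicate 1. TMTC3, an O-mannosyltransferase of cadherins, fell by 0.81, and GPC6, a heparan sulfate proteoglycan of the cell surface, fell by 0.74. GPC6 read 9.01, 9.27 and 9.11 after nonsense siRNA, 8.32, 8.37 and 8.49 after YAP siRNA and 9.21, 9.21 and 9.25 in untreated cells. Untreated and nonsense siRNA arrays overlapped, and the YAP siRNA arrays lay apart below them. Among 9 measured glypicans and syndecans SDC2 (-0.23) and GPC4 (-0.21) also fell, both not placed. SDC2 was lost in 3 of the 9 fits lacking 1 array (adjusted p up to 0.121, without YAP siRNA replicate 1) and GPC4 in 7 (0.205, without nonsense siRNA replicate 3).

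E2F5, a transcription factor that acts with retinoblastoma relatives, averaged 7.82 ± 0.22 (SD, n = 3) after nonsense siRNA, with replicate 2 lowest at 7.58, and read 6.95, 6.92 and 6.73 after YAP siRNA and 7.54, 7.61 and 7.24 in untreated cells. Its difference of -0.96 (SE 0.105, adjusted p = 6.98e-05) carried one of the larger errors, and nonsense siRNA replicate 2 lay among the untreated arrays. PLOD2, a collagen lysyl hydroxylase, read 9.81, 9.39 and 9.78 after nonsense siRNA, where replicate 2 was again the low one, and 8.76, 8.84 and 8.64 after YAP siRNA. Untreated cells read 9.42, 9.48 and 9.44, and the difference of -0.91 left 53.1% of the nonsense siRNA level. PDCD4, an inhibitor of translation initiation, fell by 0.89 (SE 0.0599, adjusted p = 5.77e-07), as did FAM91A1, a Golgi trafficking adaptor, by 0.89. LSM3, a core component of spliceosomal and decay complexes, read 9.74, 9.43 and 10.15 after nonsense siRNA and 9.05, 8.91 and 8.98 after YAP siRNA. That spread of the nonsense siRNA arrays gave an SE of 0.13, and the difference of -0.80 did not pass when all 33297 probe sets were tested (adjusted p = 0.0665). HIPK3, a homeodomain-interacting kinase, fell by 0.77 and lay on both sides, with untreated arrays at 8.30 to 8.37 between the nonsense siRNA arrays at 8.63 to 8.67 and the YAP siRNA arrays at 7.80 to 7.94. ELMOD2, a regulator of ARL GTPases, fell by 0.75 and SLC11A2, the divalent metal transporter of iron uptake, by 0.74, both on the YAP side, where E2F5, PLOD2, PDCD4, FAM91A1 and LSM3 also lay.

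REEP3, an endoplasmic reticulum shaping protein named after its values were seen, had 2 probe sets that both fell, with differences of -0.66 for the brighter and -1.13 for the dimmer. Over the 42 called genes with several probe sets there were 48 other probe sets, of which 45 had the same sign, 33 were called the same way and 0 the opposite way. All 33 of the others at or above the median signal had the same sign, and 25 were called.

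A further 6 genes, of varied function and named after their values were seen, fell on the YAP side with no overlap with the 6 other arrays. SKP2, the ubiquitin ligase subunit that marks p27 for degradation, read 10.23, 10.29 and 10.21 after nonsense siRNA, 9.63, 9.62 and 9.66 after YAP siRNA and 10.05, 10.07 and 10.12 in untreated cells. It fell by 0.61 (SE 0.0504, adjusted p = 5.01e-06), with the 3 YAP siRNA arrays close together. SMC5, of a genome maintenance complex related to cohesin, fell by 0.70, and GCLM, the modifier subunit of the first enzyme of glutathione synthesis, by 0.63. PIK3CB, a catalytic subunit of phosphoinositide 3-kinase, fell by 0.58, TSG101, of the endosomal ESCRT-I complex, by 0.57, and LMNB1, lamin B1 of the nuclear envelope, by 0.52. Each was called in all 9 fits that left out 1 array.

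**Figure D2:**
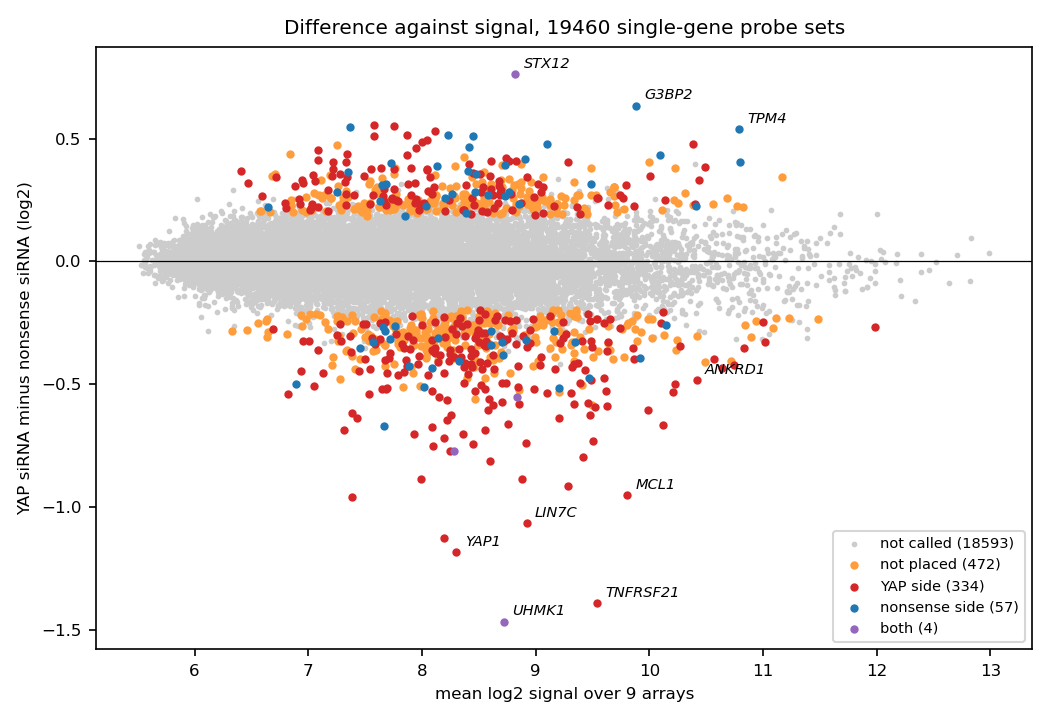
Difference between YAP siRNA and nonsense siRNA (y axis, log2) against mean log2 signal over the 9 arrays (x axis) for the 19460 single-gene probe sets, with called probe sets coloured by placement. Falls reach -1.47 and rises 0.76, and the called probe sets lie mainly at the brighter signals.

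Falls were more numerous and larger than rises at the far end. At 0.5 or more on the log2 scale 72 probe sets were lower (0.37%) and 11 higher (0.0565%). Below 0.3 the order was the other way, with 230 higher and 202 lower between 0.2 and 0.3. All 11 large rises and 66 of the 72 large falls were called in each of the 9 fits with 1 array left out, as were 247 of the 500 lower and 130 of the 367 higher probe sets of any size. With quantile normalization of the deposited values the split turned to 474 higher and 428 lower, so the majority of falls over all sizes depended on the scaling. Calls were more frequent at brighter signals: 0.0617% of probe sets in the dimmest quartile were lower and 0.103% higher, against 6.15% and 3.99% in the brightest. Of 17795 probe sets of protein-coding genes 492 were lower and 365 higher, while of 690 for long noncoding RNAs 0 were lower and 1 higher.

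The largest rise was that of STX12. STX12, an endosomal syntaxin, read 8.50, 8.33 and 8.52 after nonsense siRNA, 9.22, 9.23 and 9.18 after YAP siRNA and 8.65, 8.87 and 8.88 in untreated cells. The groups did not overlap, untreated cells lay between, and the rise of 0.76 (SE 0.0696, adjusted p = 1.28e-05) was placed on both sides. PLA2G7, the platelet-activating factor acetylhydrolase, rose by 0.56, TMT1A, a methyltransferase gene, by 0.55, and PLEKHB2, an endosomal phosphoinositide-binding protein, by 0.48. These 3 lay on the YAP side. Of 45 SNARE and endosomal trafficking genes 2.22% rose and 4.44% fell, against 1.89% and 2.55% over all genes. STX12 rose and STX6 and RAB14 fell by 0.31 and 0.28. RAB14 was lost in 7 of 9 fits (adjusted p up to 0.196, without nonsense siRNA replicate 3), whereas STX6, a trans-Golgi syntaxin on the YAP side, was called in all 9. The falls in this list numbered 6 without nonsense siRNA replicate 2.

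G3BP2, a stress granule protein, read 9.55, 9.50 and 9.52 after nonsense siRNA, 10.20, 10.18 and 10.08 after YAP siRNA and 9.94, 9.97 and 9.99 in untreated cells. The rise of 0.64 was on the nonsense side: nonsense siRNA was below untreated cells by 0.45 (adjusted p = 0.00197), and YAP siRNA was above them by 0.19, which did not pass (adjusted p = 0.0689). TPM4, a tropomyosin of actin filaments, read 10.49, 10.28 and 10.42 after nonsense siRNA, a mean of 10.93 ± 0.11 (SD, n = 3) after YAP siRNA and 11.19, 11.07 and 10.85 in untreated cells. YAP siRNA and untreated arrays overlapped, and the nonsense siRNA arrays stood apart below both. OGFR, the opioid growth factor receptor, rose by 0.51, NOLC1, a nucleolar chaperone, by 0.48, HABP4 by 0.47 and SETD7, a lysine methyltransferase, by 0.43, with differences between YAP siRNA and untreated cells of -0.09, 0.02, -0.02 and -0.03. Of the zinc finger genes ZNF616 rose by 0.55 and ZNF841 by 0.52, also on the nonsense side. In all of these the YAP siRNA arrays were above the nonsense siRNA arrays. Those of NOLC1, HABP4, SETD7 and ZNF616 overlapped with untreated cells, and those of OGFR, at 8.53 to 8.62, lay just below the untreated arrays at 8.66 to 8.70. Those of ZNF841, at 8.38 to 8.54, lay above the untreated arrays at 8.16 to 8.33. That difference of 0.20 did not pass (adjusted p = 0.0942).

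Falls on the nonsense side included PRTG, a cell surface protein of the immunoglobulin superfamily. It read 8.06, 8.06 and 7.99 after nonsense siRNA, 7.44, 7.42 and 7.25 after YAP siRNA and 7.50, 7.69 and 7.57 in untreated cells. LIFR, the leukaemia inhibitory factor receptor, read 9.76, 9.78 and 9.76 after nonsense siRNA, 9.34, 9.35 and 9.17 after YAP siRNA and 9.35, 9.33 and 9.36 in untreated cells. The YAP siRNA and untreated arrays of LIFR overlapped (difference -0.06, adjusted p = 0.665), so that nonsense siRNA alone was apart. SUZ12, a subunit of Polycomb repressive complex 2, fell by 0.52, RESF1 by 0.43 and AGO2, the slicing Argonaute of RNA interference, by 0.41. In PRTG, SUZ12 and AGO2 the YAP siRNA arrays also lay below all untreated arrays. Their differences from untreated cells of -0.22, -0.17 and -0.13 did not pass (adjusted p = 0.0827, 0.179 and 0.214). H2BC7, a histone, fell by 0.51. H2BC7 and RESF1 were lost with all probe sets tested (adjusted p = 0.0648 and 0.0572). PCBP1, an RNA-binding protein, fell by 0.43 and RPL31, a ribosomal protein, by 0.39. PCBP1 was lost in 5 of the 9 fits (adjusted p up to 0.0964) and RPL31 in 7 (0.206), each highest without nonsense siRNA replicate 1. Histone and ribosomal protein genes have close copies, so their probe signal is uncertain.

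Larger differences were placed more often. Placement needs a second comparison that shares arrays to pass, which a larger difference does more readily, so this follows in part from the rule. Of the 500 falls 207 lay on the YAP side (41.4%), 24 on the nonsense side (4.8%) and 266 were not placed. Of the 72 falls of 0.5 or more, 58 lay on the YAP side (80.6%), 4 on the nonsense side, 3 on both and 7 were not placed. Of the 367 rises 127 lay on the YAP side (34.6%) and 33 on the nonsense side (9.0%), and the 11 large rises held 5 of each and 1 on both. The median fall on the YAP side was -0.39, and the separate medians against untreated cells were -0.34 for YAP siRNA and 0.06 for nonsense siRNA. The 266 unplaced falls had medians of -0.13 for YAP siRNA and 0.16 for nonsense siRNA against untreated cells, and in 324 of the 500 the untreated mean lay nearer to nonsense siRNA.

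The nonsense side rested on few arrays. Its count went from 57 to 476 without nonsense siRNA replicate 2 and to 10 without nonsense siRNA replicate 1, and 8 of the 57 kept their placement in all 9 fits with 1 array left out. It was 12 to 16 without any 1 untreated array, 14 without nonsense siRNA replicate 3, and 28 and 33 without YAP siRNA replicates 1 and 2. The YAP side was 184 and 189 without YAP siRNA replicates 2 and 1, 210 without untreated replicate 2 and up to 331 in the other fits, and 124 of its 334 kept their placement in all 9. Calls between the siRNA groups were fewest without nonsense siRNA replicate 1 (283 lower, 163 higher) and most without nonsense siRNA replicate 2 (850 lower, 422 higher). They were 308 lower and 208 higher without nonsense siRNA replicate 3, 316 lower without YAP siRNA replicate 3, and 198 and 170 higher without YAP siRNA replicates 1 and 2. Every gene named here as lost in some of these fits was also lost when all 33297 probe sets were tested, except CSF1, SF3B2 and TNFRSF10B. With the 3 arrays that stood apart all left out, an alternative chosen after seeing the data, 814 were lower and 518 higher, with 402 on the YAP side and 486 on the nonsense side.

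**Figure D3:**
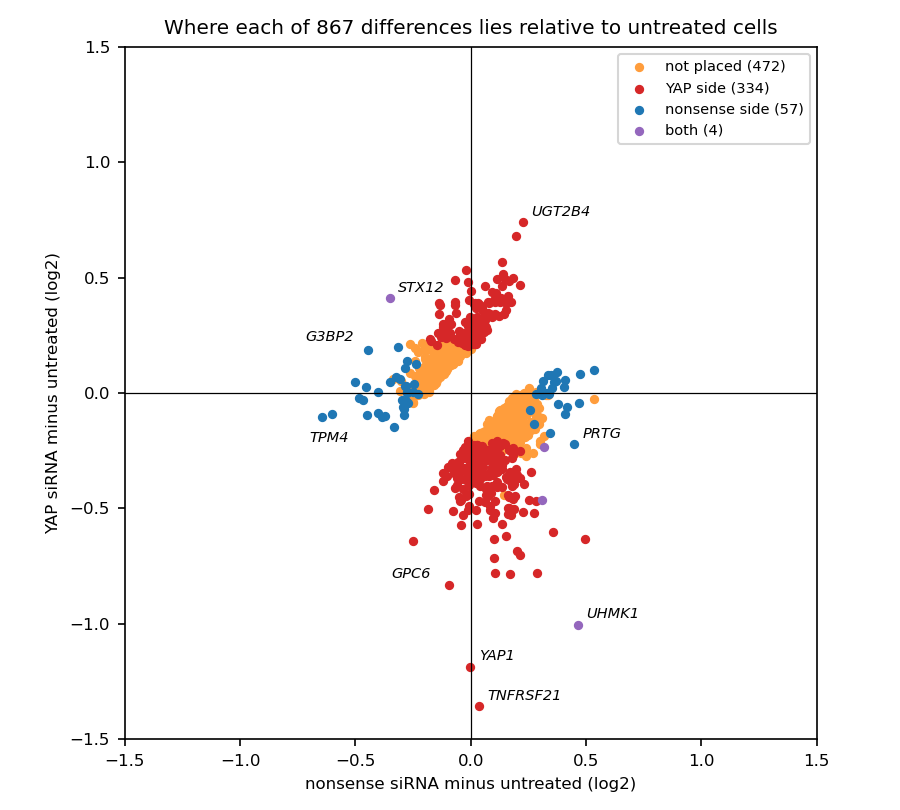
Differences of the 867 called probe sets from untreated cells, nonsense siRNA on the x axis and YAP siRNA on the y axis (log2), coloured by placement. TNFRSF21 and YAP1 lie straight below the origin, TPM4 and G3BP2 lie to the left near the horizontal line, and UHMK1 lies at lower right with both distances from 0.

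**Figure D4:**
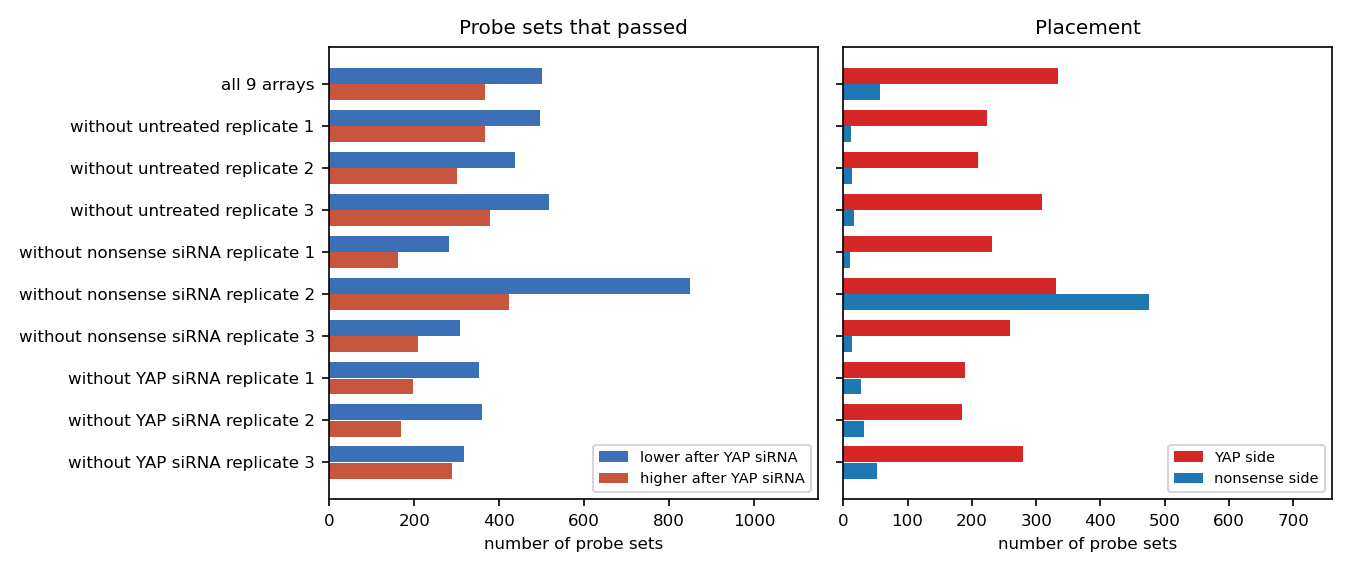
Number of single-gene probe sets called lower or higher (left) and placed on the YAP or nonsense side (right) with all 9 arrays and with each array left out in turn. The nonsense side grows from 57 to 476 without nonsense siRNA replicate 2, whereas the YAP side stays between 184 and 331 in these fits.

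Of 15 measured genes of IGF receptors and binding proteins 3 fell (20%) and 0 rose by limma (1 at an unadjusted p under 0.05). INSR, the insulin receptor, fell by 0.39 (SE 0.061, adjusted p = 0.00137) and IGF1R, the IGF1 receptor, by 0.30 (SE 0.0558, adjusted p = 0.00458), both on the YAP side and both called in each of the 9 fits, and IGF1R was lost with the small RNA covariate (adjusted p = 0.055). IRS2, their docking protein, fell by 0.23, not placed, and was lost in 5 of 9 (adjusted p up to 0.146, without YAP siRNA replicate 2). Of 22 EGF receptor family members, ligands and sheddases, EREG, the ligand epiregulin, rose and ADAM17, the sheddase of such ligands, fell. EREG read 8.55, 8.54 and 8.61 after nonsense siRNA, 8.99, 8.93 and 9.01 after YAP siRNA and 8.76, 8.72 and 8.74 in untreated cells, a rise of 0.41 with 3 separate groups. ADAM17 fell by 0.37, and both were placed on the YAP side.

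In the Wnt pathway list 2 of 39 measured genes fell (5.13%) and 1 rose (2.56%), against 2.55% and 1.89% over all genes. FZD5, a frizzled receptor, read 10.39, 10.41 and 10.38 after nonsense siRNA, 9.73, 9.69 and 9.77 after YAP siRNA and 10.23 on each untreated array. Its difference of -0.67 (SE 0.0489, adjusted p = 1.33e-06) was on the YAP side, and no group overlapped with another. GSK3A fell by 0.21 and RNF43 rose by 0.22, and with 1 array left out these were lost in 7 and 4 of 9 fits (adjusted p up to 0.161, without YAP siRNA replicate 3, and 0.126, without YAP siRNA replicate 2).

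Of 40 measured genes of the TGF-beta and BMP pathway 7 fell (17.5%) and 2 rose (5%), with 4 falls without YAP siRNA replicate 3 and 0 rises without YAP siRNA replicate 1. BMP2, a ligand, read 10.31, 10.39 and 10.40 after nonsense siRNA and 9.95, 10.05 and 10.06 after YAP siRNA, a difference of -0.35 (SE 0.0555, adjusted p = 0.00167) on the YAP side. SMAD5, the signal transducer of BMP receptors, fell by 0.40, and BMPR2, a type II receptor named after its values were seen, by 0.29, both not placed. These 3 were called in each of the 9 fits, and BMPR2 was lost with all probe sets tested (adjusted p = 0.0609) and with the small RNA covariate (0.12). ID2, a BMP target, and TGFBR1 each fell by 0.34 and each was lost in 4 of 9 (adjusted p up to 0.194, without nonsense siRNA replicate 1, and 0.0672, without YAP siRNA replicate 3). In the Notch list 3 of 37 fell and 1 rose, and the 3 falls were called in each of the 9 fits. They were the ligand JAG1 (-0.35, adjusted p = 0.00109), ADAM17 and POGLUT1, the O-glucosyltransferase of Notch (-0.36, adjusted p = 0.00139). JAG1 was at 10.90 to 11.01 on all 6 control arrays and at 10.56 to 10.63 after YAP siRNA.

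Of the cell cycle lists, that of histones had the most calls. Of 56 replication-dependent histone genes 12 fell (21.4%) and 0 rose by limma (1 at an unadjusted p under 0.05), with a median of -0.12 against nonsense siRNA, -0.05 against untreated cells, and 0.08 between nonsense siRNA and untreated cells. H4C13 averaged 8.04 ± 0.05 (SD, n = 3) after nonsense siRNA and read 7.64, 7.63 and 7.57 after YAP siRNA and 7.97, 7.90 and 8.01 in untreated cells. It was the member on the YAP side, by 0.43 (SE 0.0534, adjusted p = 0.000223), H2BC7 was the member on the nonsense side, and 10 were not placed. H2AC14 fell by 0.42, H3C7 by 0.40 and H1-2, named after its values were seen, by 0.36, and 5 of the 12 were called in each of the 9 fits. The list's count was 5 without nonsense siRNA replicate 1, and H2AC14 was lost with all probe sets tested (adjusted p = 0.087). SLBP, which binds the end of histone mRNAs, fell by 0.32 on the YAP side (adjusted p = 0.00148). Of 47 genes of DNA replication and G1/S, 5 fell (10.6%) and 0 rose by limma (1 at an unadjusted p under 0.05): POLA1, of DNA polymerase alpha, by 0.36, RPA2, of the single-strand binding complex, by 0.35, SLBP, RRM2, of ribonucleotide reductase, by 0.32, and CCNE1, cyclin E1, by 0.26. RRM2 did not pass (adjusted p = 0.0528) without nonsense siRNA replicate 1 and CCNE1 in 6 of 9 (highest 0.177, without YAP siRNA replicate 3), and the list's count was 12 without nonsense siRNA replicate 2.

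Of 27 E2F and retinoblastoma genes 5 fell (18.5%) and 0 rose by limma (2 at an unadjusted p under 0.05). Beside E2F5 these held its dimerisation partner TFDP2, at -0.31 (SE 0.0539, adjusted p = 0.0033), called in each of the 9 fits and not placed. CCND1, cyclin D1, fell by 0.25 and E2F7 by 0.24, lost in 2 and 4 of 9 (adjusted p up to 0.101 and 0.0811, both without YAP siRNA replicate 1). The list's count was 2 without nonsense siRNA replicate 1. RB1 did not pass, at 0.06 (adjusted p = 0.75). Of 42 mitosis and chromosome segregation genes BUB3, a spindle checkpoint protein, fell by 0.32 and KIF23, a kinesin of cytokinesis, by 0.23, both not placed, and KIF23 was lost in 6 of 9 (adjusted p up to 0.177, without nonsense siRNA replicate 3). In 39 of the 42 the difference was below 0, as it was in 8161 of all 18417 genes, and the median was -0.10 against nonsense siRNA and 0.01 against untreated cells. Without nonsense siRNA replicate 2 the count of falls in this list was 8, and BUB3 was lost with the small RNA covariate (adjusted p = 0.0591).

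Of 56 measured drug metabolism enzymes 7 rose (12.5%) and 0 fell by limma (1 at an unadjusted p under 0.05), with a median of 0.05 against nonsense siRNA and 0.08 against untreated cells. UGT2B4, a glucuronosyltransferase of bile acids and steroids, read 7.71, 7.74 and 7.87 after nonsense siRNA, 8.38, 8.35 and 8.13 after YAP siRNA and 7.41, 7.54 and 7.68 in untreated cells. The YAP siRNA arrays were the 3 highest, and the rise was 0.51 against nonsense siRNA (SE 0.0776, adjusted p = 0.00101) and 0.74 against untreated cells. ADH6, an alcohol dehydrogenase, rose by 0.34 and CYP1B1 by 0.31, both on the YAP side and dim, with signals of 6.52 to 7.13 on all arrays. CYP1A1, the aryl hydrocarbon-induced cytochrome, rose by 0.31, not placed, and did not pass (adjusted p = 0.0526) without nonsense siRNA replicate 1, where 4 of the list rose. Of 23 bile acid genes 2 rose and 0 fell by limma (2 lower at an unadjusted p under 0.05). AKR1D1, the steroid 5-beta-reductase, read 7.88, 7.86 and 7.97 after nonsense siRNA, 8.41, 8.42 and 8.33 after YAP siRNA and 7.61, 7.71 and 7.80 in untreated cells, rising by 0.49 on the YAP side. CYP27A1, the sterol 27-hydroxylase, rose by 0.23, not placed, and was lost in 5 of 9 fits (adjusted p up to 0.147, without YAP siRNA replicate 2). Without nonsense siRNA replicate 2 the falls in the drug metabolism and bile acid lists numbered 3 and 1, so their counts of 0 depended on that array.

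Of 40 fatty acid and neutral lipid enzymes 4 rose (10%) and 2 fell (5%). ACSL5, an acyl-CoA synthetase, read 7.75, 7.81 and 7.76 after nonsense siRNA, 8.20, 8.29 and 8.21 after YAP siRNA and 7.83, 7.81 and 7.88 in untreated cells, a rise of 0.46 (SE 0.0516, adjusted p = 7.89e-05). GPAM, which starts glycerolipid synthesis, rose by 0.51. ACSL4, a relative of ACSL5, fell by 0.26, not placed, and PNPLA3, a lipid droplet lipase, fell by 0.31 on the YAP side. ACSL4 was lost without YAP siRNA replicate 2 (adjusted p = 0.0649) or 3 (0.0588) or nonsense siRNA replicate 1 (0.0793), and PNPLA3 with all probe sets tested (0.0597) or the small RNA covariate (0.0555). Of 24 cholesterol genes SOAT2, which esterifies cholesterol, rose by 0.53 on the YAP side, and SREBF2 and INSIG1, of the sterol sensing system, fell by 0.24 and 0.21. SREBF2 was lost without YAP siRNA replicate 1 (adjusted p = 0.101) or nonsense siRNA replicate 1 (0.107), and INSIG1 in 6 of 9 fits (highest 0.163, without nonsense siRNA replicate 1). Both were lost with quantile normalization (adjusted p = 0.0517 and 0.0774), and 6 of the list fell without nonsense siRNA replicate 2.

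Of 42 plasma carriers and apolipoproteins 4 rose (9.52%) and 0 fell by limma or at an unadjusted p under 0.05. MTTP, which loads lipid onto apolipoprotein B, read 9.72, 9.77 and 9.63 after nonsense siRNA, 10.02, 10.10 and 9.93 after YAP siRNA and 9.63, 9.67 and 9.67 in untreated cells. It rose by 0.31 (SE 0.0578, adjusted p = 0.00487) and was called in each of the 9 fits. AHSG, SERPINA6 and HPX rose by 0.29, 0.27 and 0.25 and each was lost in 3 of 9 (adjusted p up to 0.0933 and 0.0627, both without YAP siRNA replicate 1, and 0.184 in the fit lacking nonsense siRNA replicate 1). The hepatocyte markers ALB, at -0.06 (adjusted p = 0.75), and AFP, at -0.04 (0.814), did not pass and their groups overlapped. Among 25 hepatocyte transcription factors HHEX fell by 0.30 (SE 0.0553, adjusted p = 0.0047) and FOXA1 by 0.22, both not placed, and FOXA1 was lost in 8 of 9 (adjusted p up to 0.151, without YAP siRNA replicate 3). Of 44 coagulation and complement genes 2.27% fell and 2.27% rose, near the 2.55% and 1.89% over all genes. F5 rose by 0.21 and FGA fell by 0.24, each lost in 6 of 9 (0.161, without YAP siRNA replicate 1, and 0.193 in the fit lacking nonsense siRNA replicate 3). Of 21 oncofetal genes IGF2BP3, an oncofetal RNA-binding protein, fell by 0.39 (adjusted p = 0.00202), and CD24 fell by 0.41, with overlapping siRNA groups and a loss in 6 of 9 fits (adjusted p up to 0.219, without nonsense siRNA replicate 1). The oncofetal count was 4 without nonsense siRNA replicate 2.

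**Figure D5:**
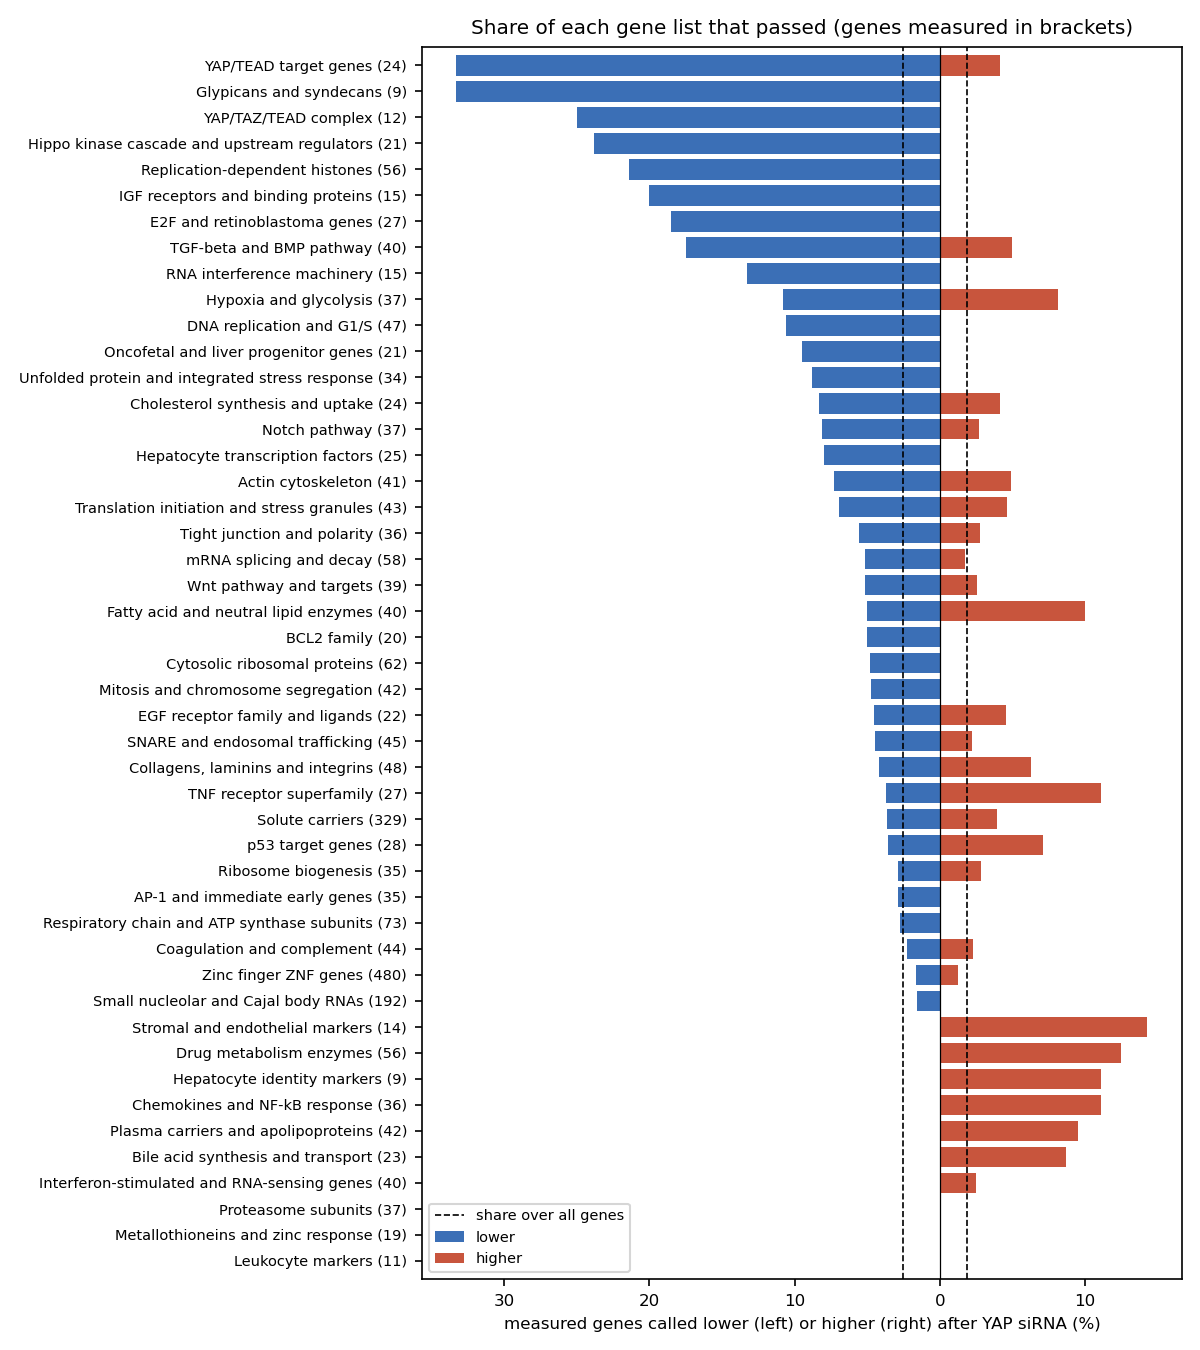
Share of the measured genes of each list that were called lower (bars to the left) or higher (bars to the right) after YAP siRNA, in percent, with the shares over all 18417 genes (2.55% and 1.89%) as dashed lines. The target gene and glypican lists reach 33.3% lower, and the drug metabolism list reaches 12.5% higher with 0 lower.

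Inflammatory and matrix genes included single rises. Of 36 chemokine and NF-kB response genes 4 rose (11.1%) and 0 fell by limma or at an unadjusted p under 0.05. CXCL5, a neutrophil chemokine, read 9.08, 9.19 and 9.22 after nonsense siRNA, 9.48, 9.61 and 9.62 after YAP siRNA and 9.13, 9.06 and 9.12 in untreated cells, a rise of 0.40 on the YAP side (SE 0.058, adjusted p = 0.000639). ICAM1, VCAM1 and CSF1 rose by 0.29, 0.27 and 0.22 and were lost in 4, 3 and 4 of 9 fits, with the highest adjusted p (0.084, 0.104 and 0.0927) in the fits lacking nonsense siRNA replicate 1, YAP siRNA replicate 2 and nonsense siRNA replicate 3. CXCL10 was the 1 of 40 interferon and RNA-sensing genes to pass, rising by 0.32 (adjusted p = 0.00212) at dim signals of 6.22 to 6.80. DUSP1, a MAP kinase phosphatase, was the 1 of 35 immediate early genes to pass, and fell by 0.40 on the YAP side. Of 48 collagens, laminins, integrins and their enzymes 2 fell and 3 rose. PLOD2 fell as above and COL5A2 by 0.47 on the YAP side (adjusted p = 0.00301, and 0.0601 with all probe sets tested). COL1A2 rose by 0.43, not placed, and LOX, a collagen cross-linking oxidase, by 0.35 on the YAP side. COL1A2 and PDGFRA, which rose by 0.35, were the 2 of 14 stromal and endothelial markers that passed, and 0 of 11 leukocyte markers passed by limma or at an unadjusted p under 0.05. No leukocyte marker separated the siRNA groups. PDGFRA read 6.85 to 6.94 after nonsense siRNA and 7.20 to 7.31 after YAP siRNA, and the part of other cells in these 2 results was not tested.

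Of 41 actin cytoskeleton genes 3 fell and 2 rose, TPM4 as above and RHOB. CFL2, the muscle-type cofilin, fell by 0.64 on the YAP side (SE 0.0505, adjusted p = 2.91e-06). It read 9.43, 9.42 and 9.49 after nonsense siRNA, 8.79, 8.84 and 8.79 after YAP siRNA and 9.38, 9.31 and 9.36 in untreated cells. DIAPH3, an actin-nucleating formin, fell by 0.40, not placed, and was lost with all probe sets tested (adjusted p = 0.0629) or the small RNA covariate (0.064). TPM1 fell by 0.26 and was lost in 5 of 9 fits (adjusted p up to 0.143, without nonsense siRNA replicate 1). Of 37 measured genes of glycolysis and hypoxia 4 fell and 3 rose, against 6 and 5 without nonsense siRNA replicate 2. HIF1A, the oxygen-regulated factor, fell by 0.41, not placed, and NDRG1, one of its targets named after its values were seen, by 0.38 on the YAP side. CA12, a carbonic anhydrase, and PFKM, a phosphofructokinase, each rose by 0.41 on the YAP side. CA12 was at 8.85 to 8.86 after YAP siRNA and at 8.41 to 8.53 on the 6 other arrays.

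Of 34 genes of the unfolded protein and integrated stress responses VLDLR, DNAJC3 and ATF4 fell by 0.40, 0.28 and 0.21 on the YAP side, and ATF4 was lost in 5 of 9 fits (adjusted p up to 0.14, without nonsense siRNA replicate 3). DNAJC3 was lost with the small RNA covariate (adjusted p = 0.0666). Of 28 p53 target genes TP53INP1, an autophagy and stress gene, fell by 0.53 on the YAP side (SE 0.061, adjusted p = 0.000102). It read 8.72, 8.54 and 8.68 after nonsense siRNA and 8.17, 8.16 and 8.02 after YAP siRNA. TNFRSF10B rose, as given above, and TP53I3 by 0.20, lost in 8 of 9 fits (adjusted p up to 0.216, without nonsense siRNA replicate 1). The falls among these targets numbered 5 without nonsense siRNA replicate 2, and without YAP siRNA replicate 1 the rises numbered 0. Of 15 RNA interference genes AGO2 and AGO4 fell, and AGO4, at -0.32 (adjusted p = 0.0017), lay on the YAP side where AGO2 lay on the nonsense side.

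RNA and ribosome lists had few calls, and their counts turned on 1 array. Of 62 cytosolic ribosomal protein genes 3 fell (4.84%) and 0 rose by limma (15 lower and 1 higher at an unadjusted p under 0.05). Over all genes 2.55% fell and 1.89% rose. Those that fell were RPL31, by 0.39, RPL26, by 0.34, and RPL22, by 0.31. The list median was -0.08 against nonsense siRNA and 0.01 against untreated cells. Of 192 small nucleolar and Cajal body RNAs 3 fell (1.56%), SCARNA9 by 0.56, SNORD15B by 0.33 and SNORD53 by 0.22, and 0 of the 6 members of these lists were called in all 9 fits. Without nonsense siRNA replicate 2 the ribosomal count was 13 and the small RNA count 15, and without YAP siRNA replicate 2 both were 0. The small RNA probe sets averaged 7.07, 7.01 and 7.03 per nonsense siRNA array and 7.01, 6.97 and 6.91 per YAP siRNA array, and their part in the other results was not tested beyond the covariate. Of 58 splicing and decay genes UHMK1 and LSM3 fell as above and CNOT6 by 0.23 (5.17% lower). SF3B2, a subunit of the spliceosomal factor SF3B, rose by 0.21 (1.72% higher). Of 73 respiratory chain genes NDUFS1 fell by 0.33 and ATP5PO by 0.25 (2.74% lower, near the share over all genes). Without nonsense siRNA replicate 2 the falls in these lists numbered 10 and 9. SF3B2 was lost in 4 of 9 fits (adjusted p up to 0.104, without YAP siRNA replicate 2). CNOT6 was lost in 3 of 9 fits (adjusted p up to 0.121) and ATP5PO in 4 (0.146), each highest without nonsense siRNA replicate 1. Of 43 translation initiation and stress granule genes 3 fell and 2 rose, PDCD4 and G3BP2 as above, with 7 falls without nonsense siRNA replicate 2 and 1 without YAP siRNA replicate 3. FMR1, an RNA-binding repressor of translation, fell by 0.27 and EIF4G2, an initiation factor relative, by 0.25, lost in 4 and 3 of 9 fits (adjusted p up to 0.0926, without nonsense siRNA replicate 3, and 0.137, without nonsense siRNA replicate 1). Of 35 ribosome biogenesis genes NOLC1 rose as above and RRS1 fell by 0.30 (2.86% each way, near the shares over all genes). RRS1 was lost in 7 of 9 (adjusted p up to 0.19, without nonsense siRNA replicate 3). Of 37 proteasome subunits and 19 metallothioneins and zinc response genes 0 passed by limma, and at an unadjusted p under 0.05 the counts were 1 lower and 2 higher and 0 lower and 4 higher. The falls among proteasome subunits numbered 3 without nonsense siRNA replicate 2.

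Solute carriers were called in both directions, 12 of 329 lower (3.65%) and 13 higher (3.95%), with 13 on the YAP side and 0 on the nonsense side. Over all genes 2.55% were lower and 1.89% higher. The counts were 9 and 8 without nonsense siRNA replicate 1 and 19 and 17 without nonsense siRNA replicate 2. Among the falls, SLC16A7, a monocarboxylate transporter, fell by 0.69 and read 8.81, 8.88 and 8.81 after nonsense siRNA, 8.20, 8.18 and 8.07 after YAP siRNA and 8.71, 8.66 and 8.65 in untreated cells. SLC7A5, the large neutral amino acid carrier, fell by 0.44 (SE 0.0565, adjusted p = 0.000294), and SLC7A6 and SLC7A1, amino acid transporters named after their values were seen, fell by 0.35 and 0.32. SLC7A5 and SLC7A1 lay on the YAP side and SLC7A6 was not placed. Among the rises, SLC39A5, a zinc importer, rose by 0.39, not placed. SLC16A9 and the citrate transporter SLC13A5, named after their values were seen, rose by 0.35, on the YAP side, and 0.34, not placed, and SLC13A5 was lost with the small RNA covariate (adjusted p = 0.0595). Of 480 zinc finger genes of the ZNF series 8 fell (1.67%) and 6 rose (1.25%), shares under those over all genes, with ZNF106 falling by 0.49 on the YAP side. The falls numbered 2 without nonsense siRNA replicate 1 and 12 without nonsense siRNA replicate 2.

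Promoters searched for motifs here ran from 250 bases before to 50 after the start, and 403 of the 470 lowered and 291 of the 349 raised genes had one. Of all 18417 measured genes 14237 had one (77.3%), too few for a sound background, so the shares are given with no comparison drawn. GGAATG on either strand was in 13.6% of lowered genes' promoters and 10.7% of raised genes' promoters, beside 11.6% of those of measured genes and 14% of all 27305 promoters of the table. Among lowered genes it was in 15.8% of the 171 placed on the YAP side and in 12.1% of the other 232. Of 17 target genes with a promoter, with any on chromosome 8 left out of this count, 6 held it, among them 3 of the 6 that fell. AMOTL2, AJUBA and GADD45B held none in this window. The AP-1 motif TGANTCA was in 4.71% of lowered and 3.44% of raised genes' promoters, beside 5.58% of those of measured genes and 7.76% of all. The E2F motif GGCGGGAA was in 9.68% of lowered genes' promoters (39 of 403) and 5.5% of raised ones, beside 4.43% of those of measured genes and 3.18% of all. For lowered genes its share was 5.85% on the YAP side (10 of 171) and 12.5% for the rest (29 of 232). All 3 motifs were searched on both strands, and no test was made of these shares.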

How the data were processed

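Total RNA of 9 samples was measured on Affymetrix gene arrays, 3 per group, grouped by the sample titles and treatment labels. The values are log2 signals as deposited by the authors, which follows from their range. Background correction, summarisation and normalization are not stated in the labels, and the array medians were already on a common scale, so no scaling was added. Gene names came from the array annotation, and 1754 probe sets that name several genes and 12083 unlisted were left out of the tests.

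In R 4.3.3, limma 3.58.1 fitted a model of 3 group means on the 9 arrays (eBayes, prior degrees of freedom 9.126). The test was two-sided with Benjamini-Hochberg adjustment over 19460 probe sets and a threshold of 0.05. Every adjusted p is from limma. Promoters came from a RefSeq table of GRCh38.p14. Figures were drawn with Python 3.11.15 and matplotlib 3.10.9, and permutation tests with scipy 1.17.1.

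Members and gene lists were chosen with earlier results of these data known. Genes named were YAP1, the 15 largest falls and rises that passed with at least the median signal and non-overlapping siRNA groups, the 8 largest of each placement and direction, up to 4 per list, and CCN1, CCN2, ANKRD1, AMOTL2, AXL, WWTR1, TEAD1 to TEAD4, MCL1, RB1, ALB and AFP whatever their result, and those chosen later are marked. Lists were described by counts, with no set test.

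Alternatives were other scalings, signal filters, probe set choices and variance models, the 6 siRNA arrays alone, a replicate block, a covariate of the mean small RNA level, array weights, stricter thresholds and leaving out each array. The fit was tested on simulated data of 19460 probe sets for this comparison: it recovered 83.6% of changes of 0.3 and 100% of changes of 0.5 and of 1, with 17 false calls. The simulated noise was independent between probe sets and between arrays. These figures therefore do not cover arrays that stand apart, as some did here.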

Additional observations from a re-analysis of the deposited data

How the results depend on the processing

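YAP1 was lower in every alternative run, with differences of -1.14 to -1.20. No sign turned among the 867 calls. Counts are given here as lower, higher, YAP side and nonsense side, beside 500, 367, 334 and 57. Testing all 33297 probe sets together gave 252, 172, 141 and 0, array weights gave 1338, 1177, 654 and 813, and an adjusted p under 0.01 gave 266, 149, 154 and 11. The small RNA covariate gave 251 lower, 203 higher and 16 on the nonsense side, and kept 396 of the 867 calls. A size of at least 0.5 gave 72, 11, 63 and 9. With the 3 arrays of lowest weight left out at once, chosen after seeing the data, 814 were lower and 486 lay on the nonsense side, and 771 of the 867 calls were kept. Leaving out 1 array gave 283 to 850 lower, 163 to 422 higher, 184 to 331 on the YAP side and 10 to 476 on the nonsense side. Quantile normalization gave 428 lower and 474 higher. The 6 siRNA arrays alone, with no untreated arrays in the estimate of the spread, gave 447 lower and 312 higher. The replicate block left 33 on the nonsense side, with 487 lower and 333 higher. Deviations of same-numbered arrays from their group means correlated between -0.332 and 0.346. With 3 arrays per group this cannot decide whether same-numbered samples were handled together. The cause of these differences was not tested. The tests rest on 3 arrays per group, and dim probe sets gave few calls.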

Other observations

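Probe sets outside the comparison, those that name several genes or none, were tested together with the single-gene ones. Of the 1754 that name several genes 7 were lower and 6 higher after YAP siRNA (0.741%), and of the 12083 unlisted 25 were lower and 17 higher (0.348%), against 220 and 149 of the single-gene ones (1.9%).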
